A study of Mus musculus with 3 samples.

Results

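The genes described here are 32 genes of cholesterol synthesis, its control by sterol sensors, and the response to the liver X receptors (LXRs). They were chosen by symbol, with no measured value in the rule, and all 32 were found among the 12880 genes listed in the deposited tables. The data were 3 RNA sequencing libraries of lung macrophages from LysM-GFP mice (C57BL/6, aged 6 to 8 weeks), with 1 library each for the 0 h, 4 h and 24 h points of an acute lung injury produced by nebulized lipopolysaccharide (LPS, 1 mg/ml in saline). LysM-GFP mice carry a green fluorescent protein driven by the lysozyme M locus, which is active in macrophages, monocytes and neutrophils alike. Sorted cells were positive for GFP and CD64 and negative for Ly6g, and the column headings of the tables also name CD11b. All 3 libraries carry the same treatment text, so the labels do not say whether the mice at 0 h had received saline, LPS or nothing, and they do not give the number of mice behind a library.

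Cholesterol is built from acetyl-CoA through mevalonate to squalene and lanosterol, and lanosterol is then trimmed to cholesterol by the enzymes of the sterol branch. When membrane sterol is low, SCAP carries the SREBP proteins from the endoplasmic reticulum to the Golgi for cleavage, and the released factors turn on the synthesis genes, while INSIG proteins hold the complex back when sterol is plentiful. The LXRs are nuclear receptors that are activated by oxysterols and by intermediates of the synthesis pathway, and they turn on genes that export cholesterol and make fatty acids. Alveolar macrophages clear surfactant, which is rich in cholesterol and phospholipid, and depend on ABCG1 for exporting the cholesterol they take up.

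With 1 library per time point there is no replicate spread, no test and no p-value. A level is a normalized count, the reads of a gene divided by a size factor that puts the 3 libraries on 1 scale. A fold is a plain ratio of 2 levels, and the interval printed with it is an exact 95% binomial (Clopper-Pearson) interval for counting error only, which leaves out the variation between mice. Genes were counted as differing when the ratio, with 1 added to both levels, was at least 2-fold. Over the genes listed, the libraries in order of time held 24825976, 20379236 and 25135476 reads. Every comparison shares a library with each of the others.

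The cells behind the 3 libraries were not alike. All 6 general macrophage markers had reads in every library but did not move together, 3 being above and 3 below their 0 h level at 4 h. Csf1r stood at 29976, 40025 and 29673 normalized counts (values given as 3 numbers are at 0, 4 and 24 h in turn), and Mertk, the lowest against 0 h, at 10552, 1673 and 3194. Of 15 alveolar macrophage markers, 13 were at least 2-fold lower at 4 h than at 0 h, and the list summed to 36703, 12080 and 24348 RPM (reads scaled to a library's total over the listed genes). Of 10 classical monocyte markers, 9 were at least 2-fold higher at 4 h, and 8 were still at least 2-fold higher at 24 h than at 0 h. That list summed to 4604, 17976 and 4572 RPM, a sum in which Fn1, at 87223, 131482 and 25383 normalized counts, was the largest member at 0 h. All 8 neutrophil markers measured in both libraries were at least 2-fold higher at 4 h, and the neutrophil list summed to 211, 1517 and 382 RPM, with no value for Ly6g. The libraries also differed in sex-linked transcripts, with 13705, 4 and 1 reads of Xist and 4, 3994 and 2357 reads of Ddx3y at 0, 4 and 24 h. This difference sets the 0 h library apart from both later ones. In every comparison with 0 h, for any gene, the sex of the mice therefore cannot be told apart from time. In sorted cells in bulk, fewer cells of a type and less RNA per cell cannot be told apart, and the part of these marker shifts in the results below was not tested.

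The promoters of 25 of the 32 genes were given in RefSeq (GRCm38.p6, the mm10 build) as windows from 250 bases before to 50 bases after the gene start; Abcg1, Scd1, Scd2, Fdps, Fdft1, Sqle and Stard4 were not matched. The stretches below lie before the start and are printed to show the letters known as sites of SREBP and of NF-Y, the factor that works beside it, next to genes that differed in opposite directions. Capitals mark the motifs searched on both strands: CCAAT (or ATTGG, its reverse complement), the E-box CACGTG and the SREBP element TCACNCCAC. Hmgcs1 is shown as the 1 window that held the SREBP element, Insig1, Hsd17b7 and Srebf2 as genes that were highest at 4 h, Mvk and Mvd as genes that were lowest at 4 h, and Fasn as a gene that was lowest at 24 h.
Hmgcs1 (chr13:119690201-119690350, plus strand): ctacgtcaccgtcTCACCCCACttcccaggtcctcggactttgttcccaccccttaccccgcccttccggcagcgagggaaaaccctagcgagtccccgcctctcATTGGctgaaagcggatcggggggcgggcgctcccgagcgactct
Insig1 (chr5:28071262-28071362, plus strand): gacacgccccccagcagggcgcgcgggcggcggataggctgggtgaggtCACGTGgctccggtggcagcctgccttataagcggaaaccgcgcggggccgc
Hsd17b7 (chr1:169969242-169969355, minus strand): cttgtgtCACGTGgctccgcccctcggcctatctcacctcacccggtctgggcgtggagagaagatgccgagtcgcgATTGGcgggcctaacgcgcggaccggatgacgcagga
Srebf2 (chr15:82147119-82147180, plus strand): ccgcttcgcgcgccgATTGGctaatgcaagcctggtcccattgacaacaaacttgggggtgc
Mvk (chr5:114444119-114444268, plus strand): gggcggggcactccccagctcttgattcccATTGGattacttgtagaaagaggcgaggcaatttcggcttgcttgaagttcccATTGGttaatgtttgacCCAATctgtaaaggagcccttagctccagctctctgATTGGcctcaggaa
Mvd (chr8:122443423-122443572, minus strand): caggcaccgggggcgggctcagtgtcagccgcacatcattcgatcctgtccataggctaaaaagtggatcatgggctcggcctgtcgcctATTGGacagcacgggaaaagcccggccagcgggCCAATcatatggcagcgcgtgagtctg
Fasn (chr11:120824548-120824697, minus strand): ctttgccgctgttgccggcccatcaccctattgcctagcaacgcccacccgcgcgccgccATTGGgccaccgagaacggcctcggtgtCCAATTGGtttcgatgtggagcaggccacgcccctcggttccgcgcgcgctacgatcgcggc

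CCAAT was found in 20 of the 25 windows (80.0%), against 3946 of 9182 genes listed in the tables that had a window (43.0%) and 37.4% of all 32851 windows. Some genes have several windows, and among those with only 1 the shares were 84.2% of 19 genes in the set and 39.7% of 7325 listed genes. The box was found beside both directions: it was in all 6 windows of genes that were highest at 4 h and in 10 of 12 windows of genes that were lowest at 4 h. Mvk carried it 4 times and Mvd 2 times in the printed stretches, and the Fasn stretch holds a palindrome in which 2 boxes overlap. The E-box was in 5 of 25 windows (20%) against 11.7% of listed genes, and among genes with only 1 window in 15.8% against 10.2%. It was in 2 of 6 windows of genes that were highest at 4 h and in 2 of 12 of genes that were lowest at 4 h. Both Insig1 and Hsd17b7 hold it in the stretches above. The LXR element known as DR4, AGGTCA repeated after a gap of 4 bases, was in none of the 25 windows and in 5 of all 32851, which says only that these letters are not in those windows. The SREBP element was in 1 of the 25 windows (4.0%), against 1.37% of listed genes and 1.24% of all windows. These matches are descriptions of sequence, not of binding.

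At 4 h, 7 of the 32 genes were at least 2-fold lower than at 0 h and 0 were at least 2-fold higher. The same thresholds took 14.2% and 15.0% of all 12512 genes compared. The lower genes were the cholesterol exporters Abcg1 and Abca1, the phospholipid enzyme Lpcat3, the desaturase Scd2, the synthesis enzymes Dhcr7 and Mvk, and the SREBP escort Scap. The median log2 ratio of the 32 genes was -0.38, where that of all genes was 0.00. Counting error alone was passed by 19 of the 32 genes on the lower side and 8 on the higher side, where 38.3% and 38.9% of all genes passed it. In the authors' deposited table, where Abcg1 has a log2 fold change of -1.98 against -2.73 for the plain ratio, Abcg1 and Dhcr7 reached a log2 fold change of -1 or less, as did 9.02% of all genes, and 0 of the 32 reached 1 or more, as did 8.86%.

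**Figure D1:**
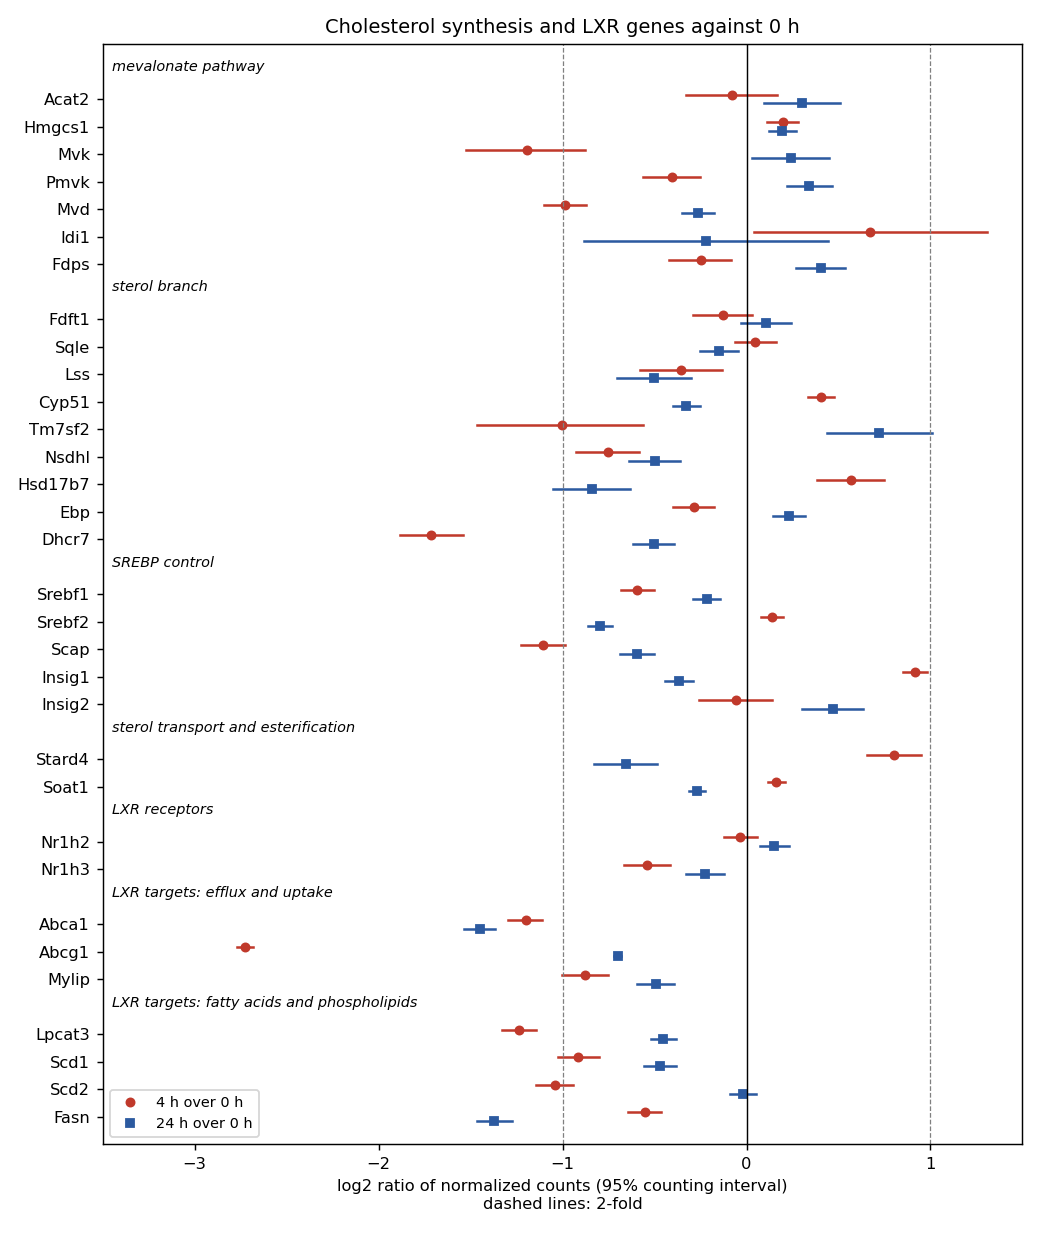
Log2 of the plain ratio of normalized counts of the 32 genes at 4 h over 0 h and at 24 h over 0 h, grouped by role; each point is a ratio of 2 single libraries and each bar its 95% counting interval. All 7 LXR target genes lie below 0 at 4 h, with Abcg1 furthest out at -2.73, while Insig1 and Stard4 lie furthest above 0.

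Of the 2 LXR genes, 1 was lower at 4 h than at 0 h beyond counting error, as were 38.3% of all genes. Nr1h2, which encodes the widely expressed LXR-beta, stood at 2221, 2169 and 2464 normalized counts at 0, 4 and 24 h. The 4 h level was 1.02-fold lower than that at 0 h (interval 0.962 to 1.09), which counting error covers. Nr1h3, which encodes LXR-alpha, stood at 1462, 1004 and 1251. It was 1.46-fold lower at 4 h than at 0 h (1.34 to 1.59) and 1.17-fold lower at 24 h (1.09 to 1.25). The reads of Nr1h2 per read of Nr1h3, a ratio that needs no scaling between libraries, were 1.52 at 0 h (1.42 to 1.62), 2.16 at 4 h (1.98 to 2.35) and 1.97 at 24 h (1.85 to 2.10).

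All 7 LXR targets were lower at 4 h than at 0 h beyond counting error, as were 38.3% of all genes, and 4 of the 7 were at least 2-fold lower, as were 14.2%. Each was lower by every scaling tried, and Abcg1 differed most. Abcg1 (chr17:31057694-31117981, mm10), the exporter of cholesterol to high-density lipoprotein, stood at 41408, 6252 and 25472 normalized counts in the 3 libraries in order of time: high at 0 h, low at 4 h and in between at 24 h. Its 4 h level was 6.62-fold lower than that at 0 h (6.43 to 6.82), and 291 of 12512 genes had a lower ratio. At 24 h it was 4.07-fold above the 4 h level (3.95 to 4.20) and still 1.63-fold below that at 0 h (1.6 to 1.65). Per kilobase of exon, Abcg1 was the most abundant of the 3 efflux and uptake genes in every library, at 6063, 915 and 3729 normalized counts per kb, where Abca1 had 357, 155 and 131 and Mylip had 515, 281 and 366. This 1 gene supplied 41.4% of the reads of all 32 genes at 0 h, 11.1% at 4 h and 35.3% at 24 h. The 32 genes together had 100017, 56512 and 72191 normalized counts, and without Abcg1 58609, 50260 and 46720. Without Abcg1 the order of 4 h and 24 h turns with scaling to total reads (1943 and 2262 RPM). For the 32 genes together that order turns with recentring on ribosomal protein genes. The alveolar macrophage markers, summed, had the same order over the libraries as Abcg1 (36703, 12080 and 24348 RPM), and their part in the Abcg1 difference was not tested.

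Abca1, which exports cholesterol to lipid-poor apolipoprotein A-I, followed another course. It stood at 3666, 1594 and 1343 normalized counts, 2.30-fold lower at 4 h than at 0 h (2.16 to 2.45) and 2.73-fold lower at 24 h (2.58 to 2.89). Both later libraries were thus low, and the sign of the difference between them turns when they are scaled to total reads. The reads of Abcg1 per read of Abca1 were 11.3 at 0 h (10.9 to 11.7), 3.92 at 4 h (3.68 to 4.18) and 19.0 at 24 h (18.0 to 20). Mylip, a ubiquitin ligase that limits lipoprotein uptake, stood at 1666, 908 and 1184. It was 1.84-fold lower at 4 h than at 0 h (1.68 to 2.0) and 1.41-fold lower at 24 h (1.31 to 1.51).

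The 4 LXR targets of fatty acid and phospholipid synthesis, among which Scd1, Scd2 and Fasn are also SREBP1 targets, showed 2 courses. Lpcat3, which places polyunsaturated chains into phospholipids, stood at 3587, 1522 and 2621 normalized counts, 2.36-fold lower at 4 h than at 0 h (2.21 to 2.52). The stearoyl-CoA desaturases Scd1 and Scd2, which make monounsaturated fatty acids, were also lowest at 4 h. Scd1 stood at 2252, 1196 and 1626, 1.88-fold lower at 4 h (1.75 to 2.03). Its log2 ratio at 24 h over 4 h was 0.44, and it turned to -0.07 when the libraries were recentred on ribosomal protein genes. Scd2 stood at 2896, 1406 and 2861, 2.06-fold lower at 4 h (1.92 to 2.21), and at 24 h its level differed from that at 0 h by less than counting error (1.01-fold lower, 0.964 to 1.06). The reads of Scd2 per read of Scd1 were 1.29 at 0 h (1.22 to 1.36), 1.18 at 4 h (1.08 to 1.28) and 1.76 at 24 h (1.66 to 1.86). Fasn, the fatty acid synthase, was lowest at 24 h: it stood at 2798, 1907 and 1082, 1.47-fold lower at 4 h than at 0 h (1.38 to 1.56) and 2.59-fold lower at 24 h (2.42 to 2.76).

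**Figure D2:**
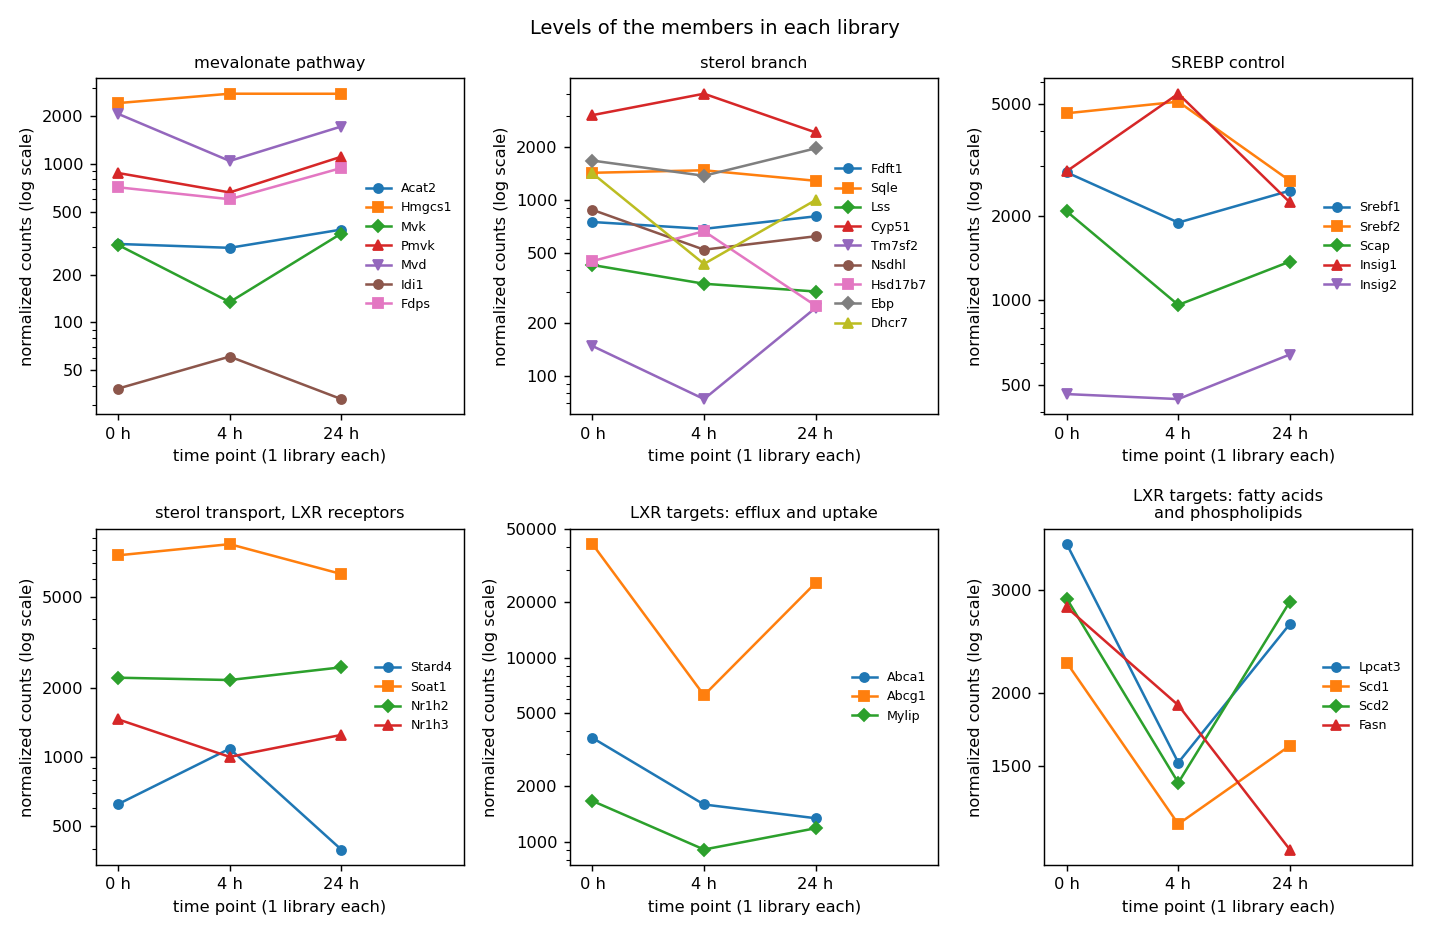
Normalized counts of the 32 genes at 0, 4 and 24 h on log axes, 1 panel per role; each point is 1 library, and lines only join the points of a gene. Abcg1 is at 41408, 6252 and 25472, Fasn is lowest at 24 h (1082), and Insig1, Stard4, Hsd17b7 and Cyp51 are highest at 4 h.

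Genes that control SREBP differed in opposite directions at 4 h, with Insig1 higher and Scap lower. Insig1, which retains the SCAP and SREBP complex and is itself turned on by SREBP, stood at 2882, 5437 and 2233 normalized counts. It was 1.89-fold higher at 4 h than at 0 h (1.80 to 1.98) and at 24 h was 2.43-fold below its 4 h level (2.32 to 2.56). Insig2, a second retention protein, stood at 464, 446 and 642, within counting error of 0 h at 4 h and 1.38-fold higher at 24 h (1.23 to 1.55); that 24 h difference has the opposite sign when the libraries are recentred on ribosomal protein genes. The reads of Insig1 per read of Insig2 were 6.21 at 0 h (5.65 to 6.84), 12.2 at 4 h (10.9 to 13.6) and 3.48 at 24 h (3.21 to 3.77).

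Scap, the escort, stood at 2072, 963 and 1374 normalized counts, 2.15-fold lower at 4 h than at 0 h (1.98 to 2.34) and 1.51-fold lower at 24 h (1.41 to 1.61). Srebf1, which encodes the fatty acid regulator SREBP1, stood at 2853, 1891 and 2456, 1.51-fold lower at 4 h (1.42 to 1.61). Srebf2, which encodes the cholesterol regulator SREBP2, stood at 4632, 5093 and 2666. Its 4 h level was 1.10-fold higher than that at 0 h (1.05 to 1.15), a sign that turns when libraries are scaled to total reads, and its 24 h level was 1.74-fold lower (1.66 to 1.82). The reads of Srebf2 per read of Srebf1 were 1.62 at 0 h (1.55 to 1.70), 2.69 at 4 h (2.54 to 2.86) and 1.09 at 24 h (1.03 to 1.14). In reads, the balance between the 2 regulators was thus shifted towards Srebf2 at 4 h and was close to even at 24 h. Per kilobase of exon, Srebf2 had 912, 1003 and 525 normalized counts and Srebf1 had 664, 440 and 571. By that measure Srebf1 was the higher of the 2 at 24 h.

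**Figure D3:**
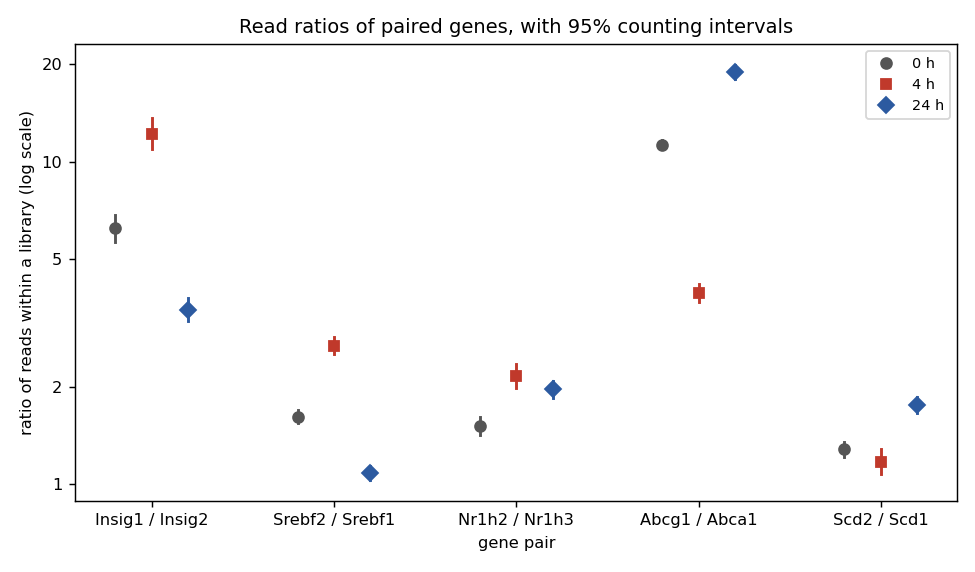
Reads of 1 gene per read of its partner in the same library at 0, 4 and 24 h, with 95% counting intervals, for 5 pairs; these ratios do not depend on scaling between libraries. Insig1 over Insig2 and Srebf2 over Srebf1 are highest at 4 h (12.2 and 2.69), while Abcg1 over Abca1 is lowest there (3.92). The pairs were chosen after their values were seen.

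In the mevalonate pathway, 1 of 7 genes was at least 2-fold lower at 4 h than at 0 h, beside 14.2% of all genes, and the steps did not all differ in 1 direction. Mvk, mevalonate kinase, stood at 308, 135 and 364 normalized counts, 2.29-fold lower at 4 h (1.83 to 2.88) and 2.71-fold higher at 24 h than at 4 h (2.18 to 3.38). Mvd, which decarboxylates mevalonate diphosphate, stood at 2069, 1045 and 1723 and lay just short of the threshold, 1.98-fold lower at 4 h (1.83 to 2.15). Pmvk, the kinase that acts between them, was lower by less, at 877, 661 and 1111 (1.33-fold at 4 h, 1.19 to 1.48). Fdps, which makes farnesyl diphosphate, stood at 713, 599 and 943, 1.19-fold lower at 4 h (1.06 to 1.34).

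Hmgcs1, the synthase that feeds HMG-CoA into the pathway, stood at 2421, 2775 and 2772 normalized counts, 1.15-fold higher at 4 h (1.08 to 1.21), a log2 ratio of 0.20 that is 0.04 when libraries are scaled to total reads. Acat2, the thiolase at the entry, stood at 313, 296 and 385, and its difference at 4 h was within counting error (1.06-fold lower, 0.892 to 1.26). Idi1, the isomerase, rested on only 41, 48 and 40 reads, and its 4 h level was 1.59-fold higher with an interval from 1.03 to 2.48. Neighbouring steps of the pathway thus differed in sign at 4 h: Hmgcs1 was on the higher side and Mvk, Pmvk and Mvd, which act on mevalonate and its phosphates, were on the lower side.

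In the sterol branch, genes also divided. Dhcr7, which reduces 7-dehydrocholesterol in the final step to cholesterol, stood at 1419, 433 and 999 normalized counts. It was 3.28-fold lower at 4 h than at 0 h (2.91 to 3.70) and 1.42-fold lower at 24 h (1.32 to 1.53). Tm7sf2, a sterol C14-reductase, stood at 148, 73.6 and 243, 2.0-fold lower at 4 h (1.47 to 2.76), which adding 1 to both levels leaves just short of the threshold. At 24 h it was 1.65-fold above 0 h (1.35 to 2.01).

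Hsd17b7, a 3-ketosterol reductase, took the opposite course, at 449, 665 and 251 normalized counts. It was 1.48-fold higher at 4 h than at 0 h (1.31 to 1.68) and 1.79-fold lower at 24 h (1.55 to 2.08). Cyp51, which demethylates lanosterol, stood at 3044, 4031 and 2427, 1.32-fold higher at 4 h (1.26 to 1.39) and 1.25-fold lower at 24 h (1.19 to 1.32). The X-linked genes Nsdhl, a sterol dehydrogenase, and Ebp, a sterol isomerase, stood at 880, 522 and 622 and at 1677, 1375 and 1969. Nsdhl was 1.69-fold lower at 4 h (1.5 to 1.90) and Ebp 1.22-fold lower (1.13 to 1.32). In these 2 genes, as in the others, the sex-linked difference between libraries cannot be told apart from time in comparisons with 0 h.

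Of the 3 enzymes that lead through squalene to lanosterol, 1 differed beyond counting error at 4 h. Of all genes, 38.3% were lower and 38.9% higher beyond counting error. Fdft1, squalene synthase, stood at 750, 685 and 808 normalized counts, and Sqle, squalene epoxidase, at 1430, 1478 and 1288. For both, counting error covered the difference between 4 h and 0 h: Fdft1 was 1.09-fold lower (0.980 to 1.22) and Sqle 1.03-fold higher (0.957 to 1.12). Lss, lanosterol synthase, stood at 427, 334 and 302, 1.28-fold lower at 4 h (1.10 to 1.49) and 1.42-fold lower at 24 h (1.23 to 1.63). Summed over the 16 synthesis genes, normalized counts were 16962, 15168 and 16240, lowest at 4 h. The order of 0 h and 24 h turns with scaling to total reads (732, 586 and 786 RPM). With recentring on ribosomal protein genes the sum was lowest at 24 h.

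Both genes of sterol transport and esterification were on the higher side at 4 h. Stard4, which carries cholesterol between membranes, stood at 626, 1090 and 397 normalized counts, 1.74-fold higher at 4 h than at 0 h (1.57 to 1.93) and 1.58-fold lower at 24 h (1.4 to 1.78). Soat1, which esterifies cholesterol for storage in droplets, stood at 7570, 8467 and 6279. Its 4 h level was 1.12-fold higher (1.08 to 1.16), a log2 ratio of 0.16 that is 0.00 when libraries are scaled to total reads. All 10 classical monocyte markers were also higher at 4 h than in either other library, and their part in the genes highest at 4 h was not tested.

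Set against both other libraries beyond counting error, 16 of the 32 genes were lowest at 4 h, where 29.0% of 12375 genes were, and 7 were highest at 4 h, where 31.3% were. The 7 were Idi1, Cyp51, Hsd17b7, Srebf2, Insig1, Stard4 and Soat1. The 16 were Abcg1, Mylip, Lpcat3, Scd1, Scd2, Nr1h3, Srebf1, Scap and 8 of the 16 synthesis genes. These counts rest on the scaling: they were 19 and 4 with scaling to total reads (39.1% and 22.3% of all genes), and 8 and 8 with recentring on ribosomal protein genes (17.4% and 37.5%).

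At 24 h, 2 of the 32 genes were at least 2-fold lower than at 0 h, Abca1 and Fasn, and 0 were at least 2-fold higher, where 8.64% and 4.57% of all 12310 genes compared were. The median log2 ratio was -0.27. In the authors' deposited table for this comparison, 0 of the 32 reached a log2 fold change of 1 in either direction, where 0.552% of all genes did upwards and 2.19% downwards. Between 4 h and 24 h, 5 genes were at least 2-fold higher at 24 h, namely Abcg1, Tm7sf2, Mvk, Dhcr7 and Scd2, and 3 were at least 2-fold lower, namely Stard4, Hsd17b7 and Insig1. Of all 12578 genes compared, 14.0% were higher and 17.6% lower by as much. The authors' deposited table for this comparison put 3 of the 32 at a log2 fold change of 1 or more, against 7.26% of all genes, and 2 at -1 or less, against 10.2%. The median log2 ratio between 4 h and 24 h was 0.35, and it was -0.17 with recentring on ribosomal protein genes, which shifts all genes by -0.51 at 24 h against either other library.

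Of 54 other genes of cholesterol and LXR biology, 52 were listed, and 50 had a value in both libraries of the comparisons with 0 h. At 4 h, 7 of the 50 were at least 2-fold higher than at 0 h and 7 lower, near the shares of all genes (15.0% and 14.2%). At 24 h against 0 h the counts were 4 higher and 6 lower (all genes 4.57% and 8.64%), and at 24 h against 4 h they were 6 higher and 10 lower of 52 (all genes 14.0% and 17.6%). Soat2, the sterol esterifying enzyme related to Soat1, was furthest up at 4 h, with 29.9, 823 and 118 normalized counts, 27.5-fold higher at 4 h than at 0 h (19.3 to 40.6), 3.96-fold higher at 24 h (2.68 to 6.00) and 6.95-fold lower at 24 h than at 4 h (5.79 to 8.39). Cyp7b1, an oxysterol hydroxylase, was 6.32-fold higher at 4 h than at 0 h (3.71 to 11.4) and 3.16-fold higher at 24 h (1.82 to 5.77), from 17 reads at 0 h.

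Nceh1, which frees cholesterol from stored esters, stood at 14960, 2237 and 9775 normalized counts, 6.69-fold lower at 4 h than at 0 h (6.37 to 7.03) and 4.37-fold higher at 24 h than at 4 h (4.16 to 4.60). The esterifying enzyme Soat2 and the hydrolase Nceh1 thus differed in opposite directions at 4 h. The more abundant Soat1, with 8467 normalized counts at 4 h where Soat2 had 823, was only 1.12-fold higher at 4 h than at 0 h. Fads2, a fatty acid desaturase, had 3 reads at 4 h, for a level 10.8-fold lower than at 0 h (3.46 to 54.3) and 5.61-fold higher at 24 h than at 4 h (1.72 to 29.0). Among the genes furthest down at 24 h against 0 h was Lrp1, a large endocytic receptor, 2.74-fold lower (2.70 to 2.78). Beside Soat2, the gene furthest down at 24 h against 4 h was the transporter Abca9, 4.68-fold lower (4.34 to 5.05).

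A few further genes of that list, which bear on LXR, were picked after their values were seen. Rxra, which encodes a partner receptor of LXR, stood at 8495, 2266 and 3872, 3.75-fold lower at 4 h (3.56 to 3.95). Ch25h, which makes the oxysterol 25-hydroxycholesterol, stood at 2741, 10121 and 2678, 3.69-fold higher at 4 h (3.54 to 3.85). Apoe, an LXR target that carries exported lipid, stood at 17854, 28253 and 34032, 1.58-fold higher at 4 h (1.55 to 1.61). Of the 13 genes listed under LXR response and partners, 6 were above and 7 below their 0 h level at 4 h. Among the LXR targets of that list, Arl4c was 2.22-fold higher (2.09 to 2.36) and Pltp, a phospholipid carrier, 2.64-fold lower (2.45 to 2.85).

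**Figure D4:**
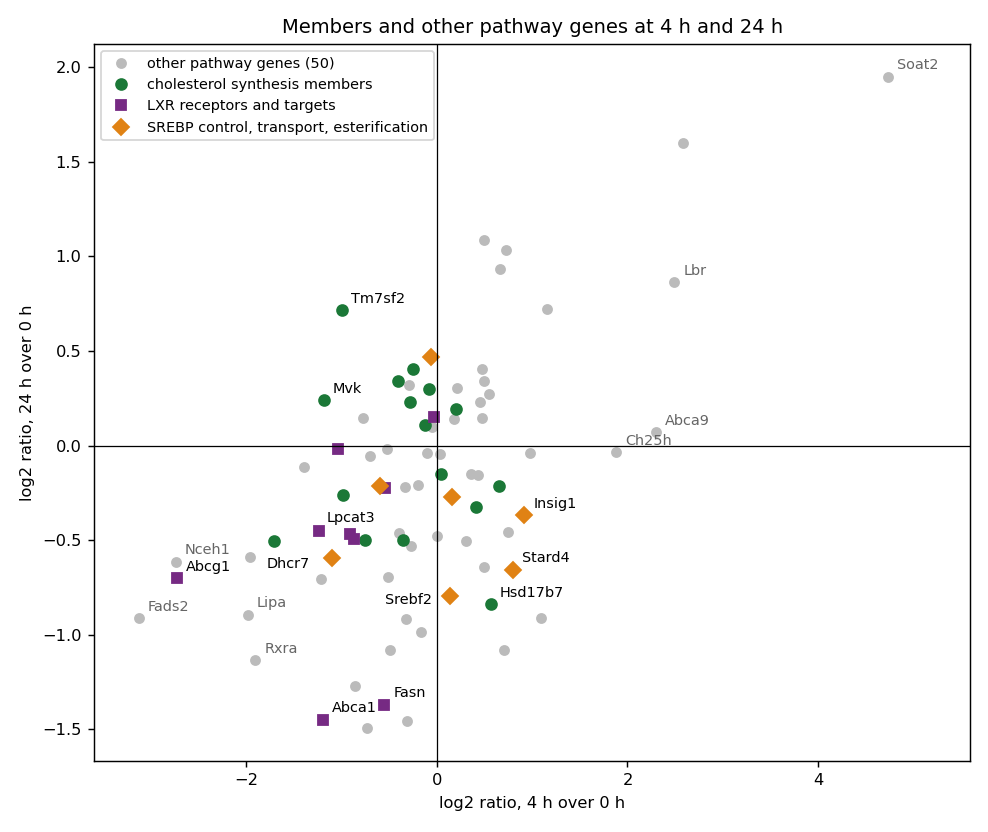
Log2 ratio (normalized counts plus 1) at 4 h over 0 h on the horizontal axis and at 24 h over 0 h on the vertical axis, for the 32 genes (coloured) and 50 other pathway genes (grey); both axes share the 0 h library. Abcg1 lies at -2.73 and -0.70, Abca1 at -1.20 and -1.45, and Soat2 alone lies beyond 4 at 4 h.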

How the data were processed

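Per the submitters' processing notes, the authors used DESeq2 and the mm10 build; which aligner, counter, strand setting and annotation they chose was not given in the sources used here. The deposited signal columns are reads divided by a size factor, in 3 tables of 2 libraries each, and list genes with a base mean above 10. Whole reads were recovered for 100% of values (tolerance 0.001), and a gene's recovered reads were the same in every table that lists it. In the 0 h and 24 h table, 1 per-sample column is headed 4h; it equalled the 0 h library in 12310 of 12310 genes and the 4 h library in 66 of 12453, and was used only for that check. The authors' deposited log2 fold changes served as an alternative.

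Size factors were recomputed over 12481 genes by median of ratios (1.07 at 0 h, 0.788 at 4 h and 1.22 at 24 h), with pseudocount 1 and a 2-fold threshold. Alternatives were total reads, TMM (edgeR 4.0.16, R 4.3.3), recentring on 78 ribosomal protein genes, pseudocounts 0 and 10, a minimum mean of 100, a 1.5-fold threshold and an interval wholly past 2-fold. Relative to median of ratios, total reads shifted log2 ratios by -0.16, 0.17 and 0.32 at 4 h against 0 h, 24 h against 0 h and 24 h against 4 h. No count model could be fitted with 1 library per time point. Scripts ran in Python 3.11.15 with scipy 1.17.1 and were tested on simulated data. Reads shared by near copies (Acat2 with Acat3, Scd1 with Scd2) may be split in a way not known here.

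The genes, lists and tests were chosen with earlier results of these data known. All 32 genes could be named; of the 54 other pathway genes, the rule named the 2 furthest up and the 2 furthest down past 2-fold in each comparison; some of these are not reported here. Gene positions are 1-based.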

Additional observations from a re-analysis of the deposited data

How the results depend on the processing

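At 4 h against 0 h, the number of the 32 genes at least 2-fold lower was 7, and it was 11 with scaling to total reads, 2 by the authors' deposited fold changes, 13 with a 1.5-fold threshold (3 higher) and 4 where the counting interval had to lie past 2-fold. At 24 h against 0 h the count of 2 lower genes became 11 with ribosomal recentring, 0 by the authors' deposited fold changes and 7 at 1.5-fold (1 higher), and the median log2 ratio of -0.27 became -0.10 with total reads, -0.78 with ribosomal recentring and -0.20 by the deposited values. At 24 h against 4 h the 5 higher and 3 lower genes became 8 higher with total reads, 2 higher and 7 lower with ribosomal recentring, 3 higher by the deposited values, and 9 higher and 7 lower at 1.5-fold. The median log2 ratio of 0.35 became 0.67 with total reads and turned to -0.17 with ribosomal recentring. Patterns over the 3 libraries were rescaled after the data were seen: 4 genes were highest at 4 h with total reads and 8 were lowest with ribosomal recentring. The cause of these differences was not tested, apart from the thresholds, which set them by construction. Of the 32 genes, those past 2-fold kept their sign under any alternative run. Depth limited Idi1, at 40 to 48 reads. No paired analysis was possible because each time point has 1 library, and for the same reason no library could be left out.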
